A study of Mus musculus with 4 samples.

Results

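Runx1, Gfi1, Lmo2 and Zeb2, 4 transcription regulators of early blood cells, and Csf3r and Fcgr2b, 2 receptor genes of the myeloid lineage, were followed in granulocyte-monocyte progenitors of wild-type and MST1-deficient mice. Their rows were taken by NCBI gene number from the deposited lists of transcripts that lie outside the reference annotation, called unannotated transcripts here. The 6 genes held 17 of the 8219 unannotated transcripts listed in any library, and 6 of the 5059 annotated genes that had such a transcript. The wild-type group and the MST1-deficient group each had 2 libraries, and each library came from progenitors pooled from 10 mice. The cells were sorted from bone marrow, kept in serum-containing medium without drug treatment in both groups, per the labels' protocols. MST1 was taken to be the Hippo pathway kinase encoded by Stk4, which the labels do not name, and the labels give neither the allele, nor the strain, sex or age. Forms of these genes that the reference annotation holds were not analysed here, and a gene's value below is the total of its unannotated forms.

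Granulocyte-monocyte progenitors are marrow cells from which neutrophils and monocytes arise. RUNX1 binds DNA as the alpha subunit of core binding factor, GFI1 is a zinc finger repressor that favours the granulocyte fate, LMO2 is an adaptor that joins TAL1, GATA and LDB1 proteins on DNA without binding it, and ZEB2 is a zinc finger repressor that binds E-boxes. CSF3R, the receptor of granulocyte colony-stimulating factor, signals through JAK kinases and STAT3 to drive the making of neutrophils. FCGR2B is the inhibitory receptor for the Fc part of IgG. It and the activating receptor encoded by Fcgr3 are surface receptors by which such progenitors are commonly sorted.

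Windows at the starts of 3 of the genes, picked after motif matches had been seen, are shown for sequence context, because Csf3r and Gfi1 had the most unannotated transcripts of the 6 and the Runx1 window was the single member window with RUNX core motifs. Each line gives 250 bases before to 50 bases after an annotated start, read on the gene's strand from RefSeq on GRCm38.p6, and capitals mark motif matches on either strand.
Csf3r, chr4:126024409-126024708, plus strand: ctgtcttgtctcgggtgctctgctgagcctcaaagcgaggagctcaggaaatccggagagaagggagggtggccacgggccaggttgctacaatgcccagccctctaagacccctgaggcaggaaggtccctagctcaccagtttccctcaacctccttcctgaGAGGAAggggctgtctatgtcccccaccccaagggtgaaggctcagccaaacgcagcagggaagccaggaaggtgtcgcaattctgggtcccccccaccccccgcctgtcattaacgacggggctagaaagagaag
Gfi1, chr5:107725756-107726055, minus strand: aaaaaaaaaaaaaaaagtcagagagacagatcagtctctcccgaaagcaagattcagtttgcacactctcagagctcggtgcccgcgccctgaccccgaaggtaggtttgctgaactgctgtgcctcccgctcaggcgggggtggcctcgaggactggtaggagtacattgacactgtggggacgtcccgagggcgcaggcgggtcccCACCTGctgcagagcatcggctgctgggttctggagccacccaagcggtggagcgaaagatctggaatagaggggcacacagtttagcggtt
Runx1, chr16:92826025-92826324, minus strand: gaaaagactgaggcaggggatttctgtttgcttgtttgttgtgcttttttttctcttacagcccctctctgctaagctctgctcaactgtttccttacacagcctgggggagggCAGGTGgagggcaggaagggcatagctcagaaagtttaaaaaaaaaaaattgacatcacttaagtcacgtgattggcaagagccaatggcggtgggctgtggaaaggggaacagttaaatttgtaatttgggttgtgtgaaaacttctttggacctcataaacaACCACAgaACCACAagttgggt
The RUNX core was searched on both strands as TGTGGT, and the core of GFI1 sites likewise as AAATCA. The E-box bound by ZEB factors was searched as CACCTG. The motif of zinc finger factors such as GATA2 was searched as AGATAA. The core of PU.1, a myeloid ETS factor, was searched as GAGGAA. No match in these windows overlapped another. The Csf3r window held 1 PU.1 core, the Gfi1 window 1 ZEB box, and the Runx1 window 2 RUNX cores and 1 ZEB box. RefSeq windows were at hand for 5 of the 6 genes, Lmo2 being the exception. Of 32851 such windows, 16.8% held the RUNX core, 14.0% the GFI1 core, 20.2% the ZEB box, 11.2% the GATA2 motif and 28.3% the PU.1 core. Among the 10 windows of the 5 genes, some of which overlap, the counts were 1, 1, 2, 0 and 6. Where the unannotated transcripts start is not given in the files, so these windows were not tied to any transcript below.

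The libraries implied between 6913332 and 8518368 counted fragments in all, of which the listed unannotated transcripts took 11.8% to 13.5%. Of 12 marker genes of the progenitors (among them Mpo, Elane, Cebpa, Irf8 and Cd34), 11 had no unannotated transcript in any library and Kit stayed at or under 0.05 FPKM, so the label could not be checked with these files. FPKM is the estimated count scaled to transcript length and library size. Unannotated transcripts of other cell types' markers were listed: 3 of 9 for mature neutrophils, 6 of 14 for erythroid cells and megakaryocytes, 3 of 8 for B cells, 3 of 8 for T and NK cells, 2 of 7 for monocytes and macrophages, and 4 of 8 for eosinophils, basophils and mast cells. Of the eosinophil, basophil and mast cell markers, all 4 listed (Alox15, Gata2, Ms4a2 and Prg3) were lower in both MST1-deficient libraries than in both wild-type ones. That was so for 18.8% of the 3221 genes tested, and none of the 4 had an unadjusted p under 0.05 (edgeR). Their sums were 151.4 and 190.4 FPKM for the wild-type pools and 113.1 and 126.3 FPKM for the MST1-deficient pools, while Prg2, Epx, Cpa3 and Mcpt8 were at 0. All 4 tested erythroid and megakaryocyte markers and all 3 tested B cell markers had log2 fold changes below 0. Of the erythroid and megakaryocyte markers, 1 had an unadjusted p under 0.05 (edgeR), as had 5.65% of all gene sums tested. No B cell marker had such a p. Both listed monocyte and macrophage markers, Ccr2 and Ly6c1, had log2 fold changes above 0 (median 0.61), and the others of that list were at 0. Their sums were 47.37 and 55.99 FPKM in wild type and 72.46 and 66.64 FPKM in the MST1-deficient pools. Each of the 2 genes alone overlapped between genotypes, and neither had an unadjusted p under 0.05 (edgeR). Mature neutrophil markers had 1 log2 fold change above 0 and 2 below, and T and NK cell markers 1 each way. Of the T and NK cell markers, 1 had an unadjusted p under 0.05 (edgeR), and no mature neutrophil marker had. No marker of any list passed the adjusted threshold. The part of such cells in the results below was not tested. In bulk RNA, fewer cells of a type and less RNA per cell cannot be told apart.

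Csf3r carried 9 unannotated transcripts, a number reached by 8 of the 5059 genes (0.16%). Gfi1 carried 3, a number reached by 12.81% of the genes, Lmo2 carried 2, and Runx1, Zeb2 and Fcgr2b carried 1 each. Of the 17 transcripts, 13 were listed in all 4 libraries, against 60.5% of the transcripts of the series. A transcript missing from a library's list was set to 0 there. Tests were run on the 15 that reached 1 FPKM in at least 2 libraries, and the exceptions were a Gfi1 form of 2501 bases and a Csf3r form of 3908 bases.

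None of the 6 gene sums, each the total over a gene's unannotated transcripts, separated the genotypes. The wild-type and MST1-deficient values overlapped for every one of them, so 0 of 6 lacked overlap, against 32.9% of the 3221 gene sums tested (14.1% with the MST1-deficient libraries higher and 18.8% with them lower). The edgeR quasi-likelihood test, with Benjamini-Hochberg adjustment over all gene sums, called 0 of 3221 (0%), and the adjusted p was 0.992 for each of the 6. At an unadjusted p under 0.05 there were 182 of 3221 gene sums (5.65%), none of them a member. DESeq2 called 46 (1.43%) and limma 6 (0.186%), again no member. Of the 6 log2 fold changes, 5 were above 0, against 51.1% of all gene sums. For the Csf3r, Lmo2, Zeb2 and Fcgr2b sums, both libraries numbered 1 lay above both numbered 2, whatever the genotype. The Gfi1 sum had both libraries numbered 2 above both numbered 1, and the Runx1 sum had neither order. How often other gene sums had such an order was not counted. The lowest adjusted p that any member sum reached over the 13 alternatives was 0.495, for Gfi1 without MST1-deficient replicate 1 (edgeR). With 2 pools a group, an exact permutation test of a single value cannot go below 0.33, and nothing in the labels says that the pools were prepared separately.

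**Figure D1:**
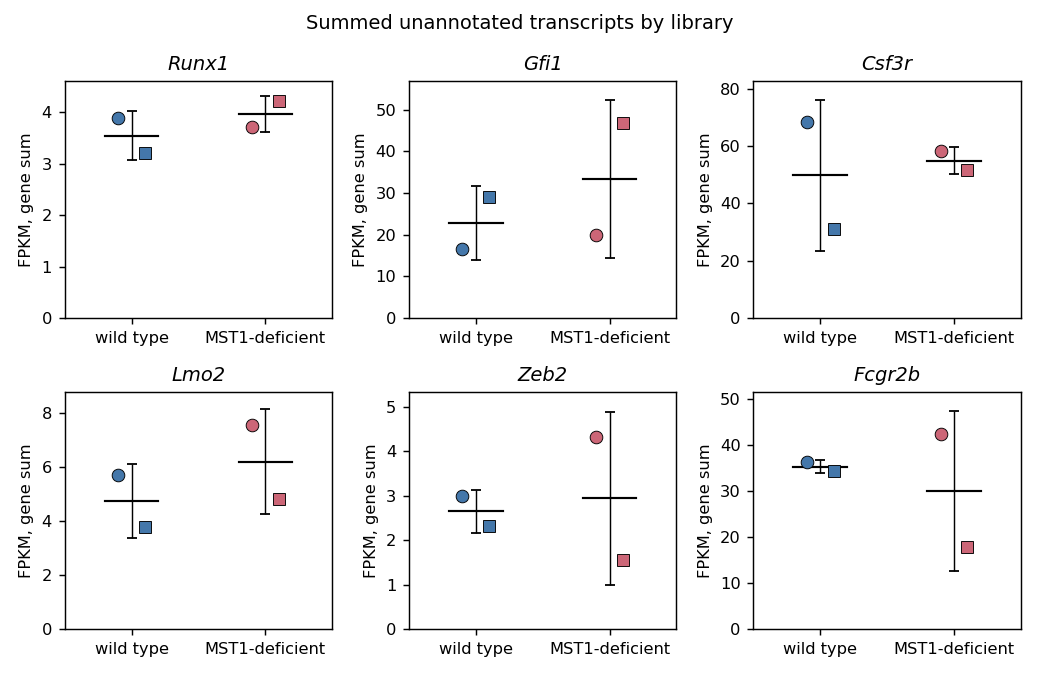
Summed FPKM of the unannotated transcripts of each gene (y axis, from 0) in wild-type and MST1-deficient libraries (circle, replicate 1; square, replicate 2); the line is the mean and the bar the SD of 2 libraries. In all 6 panels the ranges of the genotypes overlap, and libraries of 1 genotype are over 2-fold apart for Csf3r in wild type (2.2-fold) and for Zeb2 (2.77-fold), Fcgr2b (2.38-fold) and Gfi1 (2.34-fold) in MST1-deficient cells.

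Runx1 (gene 12394, chromosome 16, 92601466 to 92826074) had 1 unannotated transcript, novel_T003708, of 6031 bases. Its level was 3.88 and 3.21 FPKM in the wild-type pools, against 3.72 and 4.22 FPKM in the MST1-deficient pools. This was the most even of the 6 genes, with the highest library 1.31 times the lowest, and the groups overlapped. The estimated counts, 182.33 and 140.01 against 151.49 and 212.15, gave a log2 fold change, MST1-deficient over wild type as throughout, of 0.24 (SE 0.32). The 95% interval of that fold ran from 0.658 to 2.13, and changes within that range could not be told from none.

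Gfi1 (gene 14581, chromosome 5, 107716655 to 107725805) differed more between pools of 1 genotype than between genotypes. Its sum was 16.55 and 29 FPKM in the wild-type pools, against 19.96 and 46.7 FPKM in the MST1-deficient pools. MST1-deficient replicate 2 stood highest, at 2.34 times replicate 1 of its own group, while the group means differed 1.46-fold. A ratio that large between the MST1-deficient libraries was seen in 20.6% of the gene sums tested. The log2 fold change was 0.64 (SE 0.63), and the interval of the fold ran from 0.493 to 4.94. Without MST1-deficient replicate 2 the sign turned, to a log2 fold change of -0.33 with an adjusted p of 0.933 (edgeR).

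The largest share of the Gfi1 sum in each library lay in a form of 2466 bases, novel_T007467. This form had 15.49 and 22.35 FPKM in the wild-type pools, against 19.11 and 41.9 FPKM in the MST1-deficient pools, and the groups overlapped. It made up 93.6% and 77.1% of the Gfi1 sum in the wild-type pools, against 95.7% and 89.7% in MST1-deficient cells. Its log2 fold change was 0.80 (SE 0.60, adjusted p = 1 with edgeR). A longer form of 2781 bases, novel_T007468, had 1.06 and 5.78 FPKM in the wild-type pools, against 0.85 and 2.66 FPKM in the MST1-deficient pools. Both libraries numbered 2 lay above both numbered 1 for this form, as for the 2466-base form and the Gfi1 sum, whatever the genotype. The third form, novel_T007466 of 2501 bases, was listed at 0.87 and 2.14 FPKM in wild-type and MST1-deficient replicate 2 and was absent from both libraries numbered 1. The balance between the 2 tested forms did not pass (diffSplice of limma, adjusted p = 0.847).

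After the lengths had been seen, differences between them were set against the annotation (GENCODE M21 on GRCm38, the build also called mm10). The forms of 2466 and 2781 bases differ by 315 bases, which is the length of an annotated Gfi1 intron (chromosome 5, 107723409 to 107723723, minus strand) inside the coding region. Over 4908 pairs of unannotated transcripts of the same gene, 4.87% differed by exactly the length of an annotated intron of that gene, and 11.9% by that of an annotated exon or intron, both of which were searched. The exons of the unannotated transcripts are not in the files, so a match of lengths does not show that the intron is retained. All 3 forms were shorter than the longest annotated Gfi1 transcript, of 2860 bases, and longer than the longest annotated Gfi1 coding sequence, of 1467 bases.

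Lmo2 (gene 16909, chromosome 2, 103957903 to 103981878) held the member transcript with the lowest unadjusted p, a form listed in wild type alone, but neither its forms, their balance nor their sum passed the adjusted threshold. The sum was 5.71 and 3.78 FPKM in the wild-type pools, against 7.57 and 4.82 FPKM in the MST1-deficient pools, with overlap and a log2 fold change of 0.48 (SE 0.41). The shorter form, novel_T005469 of 1594 bases, had 21.64 and 11.99 estimated counts (1.86 and 1.11 FPKM) in wild type and was absent from both MST1-deficient lists. It made up 32.6% and 29.4% of the Lmo2 sum in wild type. The longer form, novel_T005470 of 1755 bases, had 3.85 and 2.67 FPKM in the wild-type pools, against 7.57 and 4.82 FPKM in the MST1-deficient pools, where it was the single form listed. For both forms the genotypes did not overlap, in opposite directions, a pattern found in 11.2% of the 909 genes with at least 2 tested transcripts.

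With a floor of 3 counts per library in place of 0, the 1594-base form was 5.29-fold lower in the MST1-deficient libraries, a figure that holds no sampling error. Its unadjusted p was 0.0133 and its adjusted p 0.508 (edgeR, over 4661 transcripts), with a range of 0.249 to 1 over the alternatives. The 1755-base form was 1.95-fold higher, with an interval of 0.738 to 5.15 and an adjusted p of 1. The balance of the 2 forms did not pass in diffSplice (adjusted p = 0.0687), which called 17 of the 909 genes (1.87%) and ranked Lmo2 20th (99 genes, 10.9%, had an unadjusted p under 0.05). On simulated data that test found none of the smaller changes of balance and only part of the larger ones at the adjusted threshold, so a gene it does not call is not shown to keep its balance. The adjusted p for Lmo2 ran from 0.0124 with a pseudocount of 0.1 to 0.237 without MST1-deficient replicate 1, and it could not be tested without either wild-type library. The counts behind the shorter form were low, and estimated counts divide reads that several transcripts of a gene share, so a 0 means that no read was assigned to the form. The 2 forms differ by 161 bases, a length that matched no annotated Lmo2 exon or intron.

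**Figure D2:**
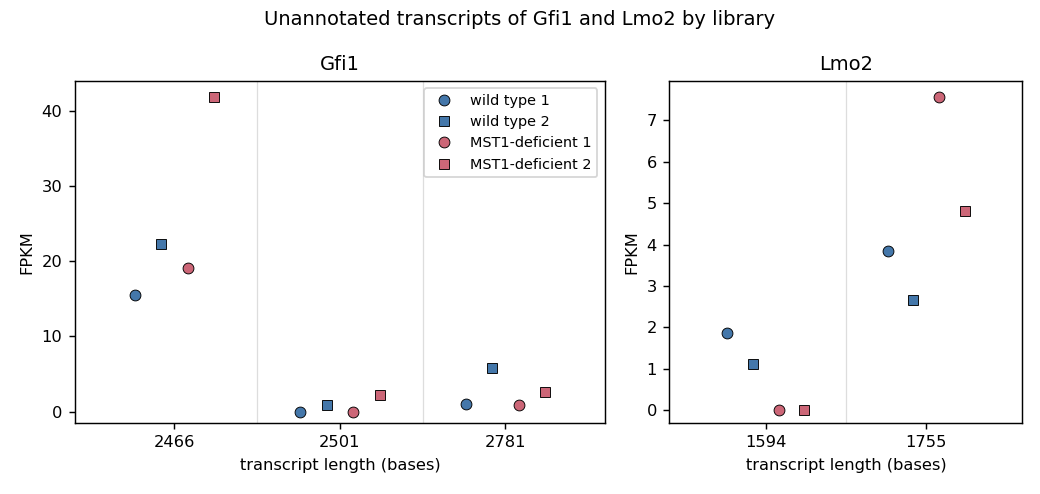
FPKM (y axis) of each unannotated transcript of Gfi1 (left) and Lmo2 (right), placed by transcript length, in the 4 libraries (blue, wild type; red, MST1-deficient; circle, replicate 1; square, replicate 2). The 1594-base form of Lmo2 is at 0 in both MST1-deficient libraries, and the 2466-base form of Gfi1 is highest in MST1-deficient replicate 2, at 41.9 FPKM.

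Zeb2 (gene 24136, chromosome 2, 44983512 to 45117442) had 1 unannotated transcript, novel_T005272, of 9190 bases. Its level was 2.99 and 2.31 FPKM in the wild-type pools, against 4.32 and 1.56 FPKM in the MST1-deficient pools. The MST1-deficient libraries held both the highest and the lowest value, 2.77-fold apart, a ratio reached between those libraries by 15.3% of the gene sums tested. The log2 fold change was 0.15 (SE 0.47), and it was -0.56 (adjusted p = 0.708, edgeR) without MST1-deficient replicate 1.

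Fcgr2b (gene 14130, chromosome 1, 170960558 to 170976071) also had 1 unannotated transcript, novel_T000489, of 1513 bases. It had 36.22 and 34.27 FPKM in the wild-type pools, against 42.27 and 17.74 FPKM in the MST1-deficient pools. The wild-type pools were nearly equal, and the MST1-deficient pools lay on either side of them, 2.38-fold apart. The counts gave a log2 fold change of -0.23 (SE 0.37), and 0.17 (adjusted p = 0.944, edgeR) without MST1-deficient replicate 2. Fcgr2b has close relatives beside it on chromosome 1, above all Fcgr3, so the assignment of shared reads is uncertain. Zeb2 and Fcgr2b had the same order of libraries, with MST1-deficient replicate 1 highest, then wild-type replicates 1 and 2, and MST1-deficient replicate 2 lowest. The monocyte chemokine receptor gene Ccr2 followed that order too, at 43.09 and 29.39 FPKM against 52.52 and 23.38 FPKM. The other listed monocyte marker, Ly6c1, did not, at 4.28 and 26.6 FPKM against 19.94 and 43.26 FPKM, and 5 of the 7 markers of that list were at 0. The part of monocytes in these levels was not tested.

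Csf3r (gene 12986, chromosome 4, 126023441 to 126044975) had the highest summed FPKM of the 6 as a mean over the 4 libraries (52.29), above 98.2% of the genes with unannotated transcripts, although Fcgr2b was higher in wild-type replicate 2. Its sum was 68.38 and 31.11 FPKM in the wild-type pools, against 58.17 and 51.49 FPKM in the MST1-deficient pools. The wild-type pools enclosed the MST1-deficient ones, 2.2-fold apart, while the MST1-deficient pools were 1.13-fold apart. The counts, 2159.16 and 899.49 against 1618.91 and 1710.38, gave a log2 fold change of 0.23 (SE 0.37) and an interval of the fold from 0.591 to 2.32. Without wild-type replicate 2, the lowest library, it was -0.18 (adjusted p = 0.999, edgeR). Some B cell markers, and the summed markers of T and NK cells and of mature neutrophils, were also highest in wild-type replicate 1. The B cell genes Cd79a (2.23 and 0.51 FPKM in the wild-type pools, 1.07 and 0.58 FPKM in the MST1-deficient pools) and Pax5 (7.95 and 0 FPKM, 3.31 and 2.85 FPKM) had the same order of all 4 libraries as Csf3r, while Cd79b, Ms4a1, Ebf1, Vpreb1 and Ighm were at 0. The summed T and NK cell markers (16.91 and 5.71 FPKM, 13.67 and 7.63 FPKM) had that order too, though no listed gene of that list had it alone. Klrb1c (11.5 and 0.78 FPKM, 3.56 and 0 FPKM) was lowest in MST1-deficient replicate 2. Ncr1 (5.41 and 4.93 FPKM, 9.86 and 7.63 FPKM) was higher in both MST1-deficient libraries, and Cd3g was listed in MST1-deficient replicate 1 alone. Of the T and NK cell list, Cd3g, Klrb1c and Ncr1 were listed and Cd3e, Cd3d, Cd4, Cd8a and Nkg7 were at 0. The sum for mature neutrophils, cells that also express Csf3r, was lowest in MST1-deficient replicate 1 and so departed from the Csf3r order, through Cxcr2 alone. Ltf (18.65 and 9.36 FPKM, 14.68 and 13.28 FPKM) and S100a8 (35.07 and 17.91 FPKM, 20.07 and 17.97 FPKM) had the Csf3r order. Cxcr2 had 50.21 and 21.8 FPKM in the wild-type pools, against 5.35 and 23.5 FPKM in the MST1-deficient pools. The summed unannotated transcripts of the neutrophil list came to 103.9 and 49.07 FPKM against 40.1 and 54.75 FPKM, from Ltf, S100a8 and Cxcr2, with Camp, Ngp, S100a9, Mmp8, Mmp9 and Retnlg at 0. The part of these cells in the Csf3r level was not tested.

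Of the 9 Csf3r transcripts, 3 had no overlap between genotypes and 6 overlapped, and none passed the test. The form of 3808 bases, novel_T006788, had 19.99 and 11.22 FPKM in the wild-type pools, against 7.58 and 10.08 FPKM in the MST1-deficient pools. Both MST1-deficient libraries thus lay below both wild-type ones, as for 19.9% of the 4661 transcripts tested. Its share of the Csf3r sum was 32.6 ± 4.8% (SD, n = 2) in wild type, against 16.3 ± 4.6% (SD, n = 2) without MST1, and its log2 fold change was -0.72 (SE 0.42, adjusted p = 1 with edgeR).

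The shortest form and a form of 4078 bases had the opposite order, each MST1-deficient library exceeding each wild-type one, as for 13.7% of the transcripts tested. The 3575-base form, novel_T006787, had 1.55 and 1.17 FPKM in the wild-type pools, against 2.47 and 6.46 FPKM in the MST1-deficient pools, with a log2 fold change of 1.84 (SE 0.74) that was 0.78 without MST1-deficient replicate 2. The 4078-base form, novel_T006786, had 1.27 and 0 FPKM in the wild-type pools, against 2.6 and 2.67 FPKM in the MST1-deficient pools, which were almost equal. Its log2 fold change of 2.17 (SE 1.91) was 1.19 without wild-type replicate 2. Without wild-type replicate 1, which left a wild-type value of 0, it was 9.31. Neither passed (adjusted p = 1 for both, edgeR), with unadjusted p of 0.0691 and 0.322.

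The other tested Csf3r forms overlapped between genotypes. The 3903-base form, novel_T006785, had 14.99 and 4.01 FPKM in the wild-type pools, against 12.55 and 10.11 FPKM in the MST1-deficient pools. The longest form, novel_T006789 of 5192 bases, had 12.51 and 4.56 FPKM against 13.55 and 7.6 FPKM. The 3780-base form, novel_T006782, had 7.94 and 2.87 FPKM against 10.27 and 6.21 FPKM. All 3 were lowest in wild-type replicate 2, the library with the lowest Csf3r sum. The 3864-base form, novel_T006781, had 6.61 and 3.37 FPKM against 5.78 and 6.74 FPKM. The 3992-base form, novel_T006783, had 3.52 and 2.75 FPKM against 3.37 and 1.62 FPKM. Both libraries numbered 1 lay above both numbered 2 for the forms of 3780, 3903, 3992 and 5192 bases. Wild-type replicate 2 was the lowest library for 6 of the 8 tested forms, the 3808-base and 3992-base forms being the others. The untested form of 3908 bases, novel_T006784, was listed in wild-type replicate 2 alone, at 1.16 FPKM (32.46 estimated counts). Of the 8 tested forms, 6 had a log2 fold change above 0 and 2 below, and the balance among them did not pass (diffSplice, adjusted p = 0.764).

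**Figure D3:**
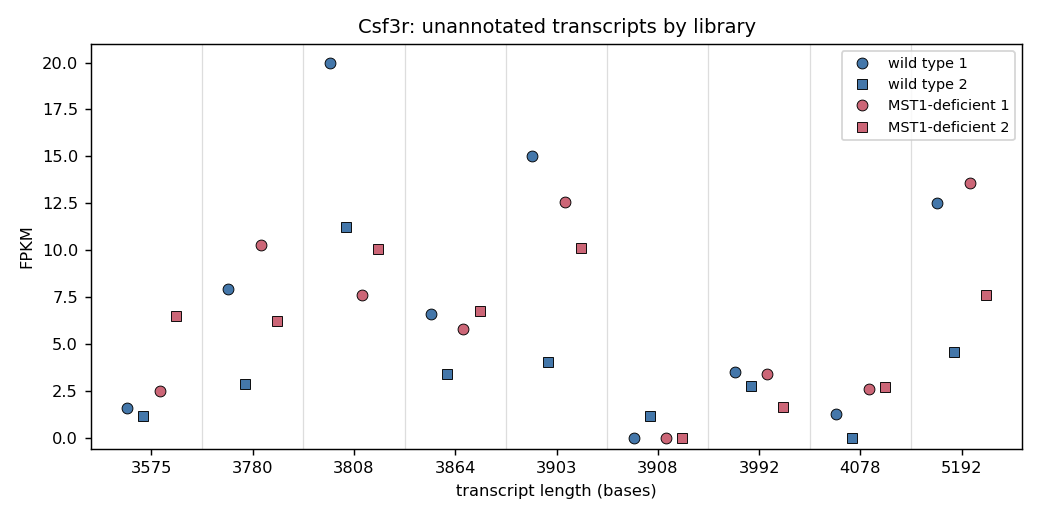
FPKM (y axis) of the 9 unannotated transcripts of Csf3r, placed by transcript length, in the 4 libraries (blue, wild type; red, MST1-deficient; circle, replicate 1; square, replicate 2). The 3808-base form reaches 19.99 FPKM in wild-type replicate 1 and has both MST1-deficient libraries lowest, while the 3903-base and 5192-base forms have wild-type replicate 2 lowest.

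Over the 15 tested transcripts of the 6 genes, 3 lay higher in each MST1-deficient library than in either wild-type one and 2 lay lower in each. Together these were 33.3% of the 15, beside 33.6% of all 4661 transcripts tested, so the members lacked overlap about as often as other transcripts. The edgeR test called 0 of 4661 transcripts (0%), where 245 (5.26%) had an unadjusted p under 0.05, DESeq2 called 100 (2.15%) and limma 6 (0.129%). The 1594-base form of Lmo2 was the 1 member transcript with an unadjusted p under 0.05. No member transcript passed with any tool or setting run, and the lowest adjusted p was 0.249, for that Lmo2 form with limma fitted without a trend. Of the 15 log2 fold changes, 10 were above 0 and 5 below, against 49.4% above 0 over all transcripts.

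**Figure D4:**
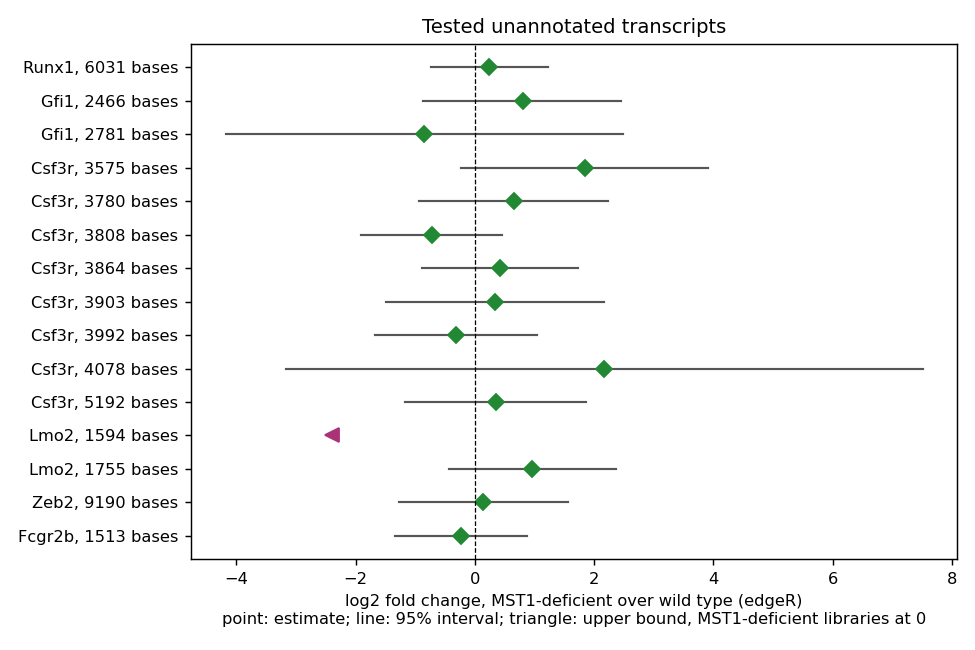
Log2 fold change of MST1-deficient over wild type (x axis) for the 15 tested transcripts, named by gene and length. Points are edgeR estimates and lines their 95% intervals. The triangle, labelled as upper bound, is at -2.40 for the Lmo2 form that is at 0 in both MST1-deficient libraries. It was set by a floor of 3 counts per library, without sampling error. All 14 intervals shown include 0, and the widest belongs to the 4078-base form of Csf3r, which was at 0 in wild-type replicate 2.

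All 9 Csf3r transcripts were longer than the longest annotated Csf3r transcript, of 3481 bases, by 94 to 1711 bases. Of the other 8 member transcripts, 3 were longer than every annotated transcript of their gene: the Runx1 form by 170 bases, the Zeb2 form by 66 and the 1755-base Lmo2 form by 49. Over the 7786 unannotated transcripts whose gene is in GENCODE, 45.1% were longer than every annotated one. The Fcgr2b form, at 1513 bases, was shorter than the longest annotated transcript of 3544 bases but longer than the longest annotated coding sequence of 1020 bases. None of the 17 had the same length as an annotated transcript of its gene, as was the case for 58 of the 7786.

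Some steps between the lengths of the Csf3r forms recurred. The 3780-base and 3864-base forms differ by 84 bases, as do the 3908-base and 3992-base forms. A step of 128 bases separates the 3780-base form from the 3908-base form and the 3864-base form from the 3992-base form. Annotated Csf3r exons have both lengths and lie side by side on the plus strand of chromosome 4, the 128-base exon at 126027189 to 126027316 in a non-coding transcript and the 84-base exon at 126027317 to 126027400 in a coding one. In all, 6 of the 36 pairs of Csf3r forms differed by the length of an annotated Csf3r exon (16.67%), against 7.27% of the 4908 pairs over all genes. For an exon or an intron, the share was 16.67% for Csf3r, where no intron matched, against 11.9% over all genes. The pairs share transcripts and the exon structures were not given, so this is a match of lengths alone.

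**Figure D5:**
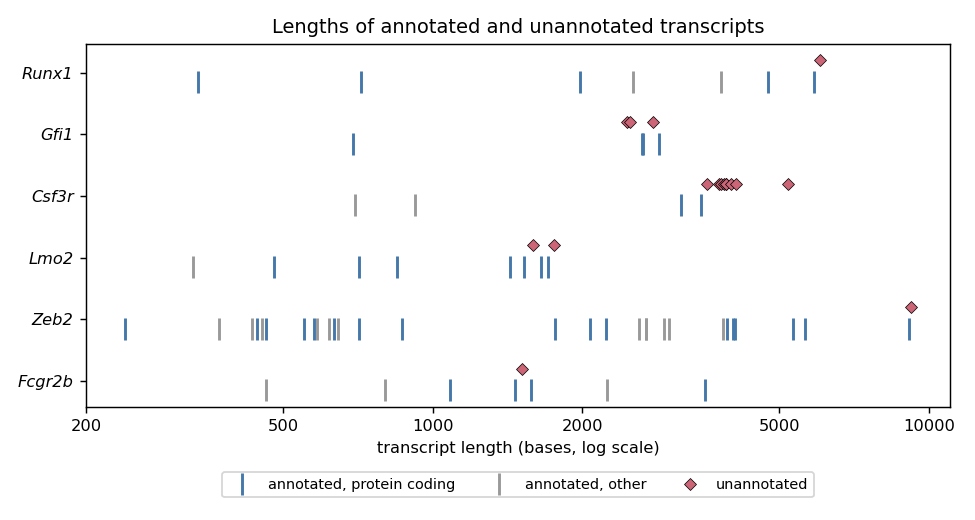
Length (x axis, bases, log scale) of the annotated transcripts (ticks, GENCODE M21; blue, protein coding; grey, other) and unannotated transcripts (diamonds) of the 6 genes. The 9 diamonds of Csf3r all lie to the right of its longest annotated transcript (3481 bases), whereas those of Gfi1 lie to the left of its longest (2860 bases).

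Partners of these regulators and receptors gave no call either. Of 21 partners of the 4 transcription regulators, 9 were tested, with 5 log2 fold changes above 0, 4 below and a median of 0.07, beside a median of 0.01 over all gene sums. The smallest p values belonged to Ctbp2, a corepressor that ZEB proteins bind, at 3.99 ± 1.202 FPKM (SD, n = 2, as for all values of these lists) without the deficiency and 6.265 ± 4.434 with it, then Hdac1, a histone deacetylase (3.46 ± 0.9617 and 4.86 ± 2.715), and Gata2, a zinc finger factor of progenitors (76.55 ± 3.295 and 63.72 ± 0.9617). Of 26 transcription factors of myeloid fate, 4 were tested, 2 above 0 and 2 below, with a median of 0.01. The first 3 by p were Mef2c (1.2 ± 1.032 and 2.935 ± 0.799 FPKM), Myc (3.625 ± 1.096 and 5.32 ± 2.517 FPKM) and Irf4 (1.37 ± 0.04243 and 0.71 ± 0.7495 FPKM). Mef2c and Irf4 had no overlap between genotypes, in opposite directions, and 2 of the 9 tested partners, Gata2 and Tcf3 (the latter named after its values were seen), were lower in both MST1-deficient libraries. Of all gene sums tested, 32.9% lacked overlap. Gata2 is also in the list of eosinophil, basophil and mast cell markers given above.

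Of 23 growth factor receptors and signalling genes, 2 were tested, both with log2 fold changes above 0. Ptpn11, a tyrosine phosphatase of cytokine signalling, stood at 5.275 ± 0.2758 FPKM against 4.925 ± 2.539 FPKM in the deficient pools, while its counts gave a log2 fold change of 0.02 (SE 0.53). Of 15 genes of Fc receptors and their signalling, Plcg2, a phospholipase downstream of such receptors, was the 1 tested, at 1.215 ± 0.3465 and 0.955 ± 0.1202 FPKM. None of the 16 tested genes of these 4 lists had an unadjusted p under 0.05, and their adjusted p values were 0.9411 or above for the genes named (edgeR).

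For each gene sum, the most alike pattern over the 4 libraries was sought among 3220 other gene sums, by the root mean square difference of centred log2(FPKM + 0.5). The nearest were Mrpl24 (0.037) for Runx1, B3gntl1 (0.05) and Plk3 (0.12) for Gfi1, and Gria3 (0.014) and Ufl1 (0.043) for Lmo2. For Zeb2 they were Sort1 (0.04) and Bod1l (0.052), for Csf3r Rin2 (0.058) and Zfp950 (0.075), and for Fcgr2b Pi4ka (0.042) and Tns1 (0.043). These likenesses rest on 4 points that share library and depth, among 3220 candidates.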

How the data were processed

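Poly(A)-selected RNA of 2 wild-type and 2 MST1-deficient pools was analysed from per-library lists of unannotated transcripts. The authors deposited estimated counts (expected counts), not normalised, and FPKM, per the file headers. FPKM followed from the count, the library total and the transcript length less 126 to 138 bases, which gave the implied totals. The submitters' processing notes name mm10 as genome build. Aligner, assembler, estimator and strand are not given in the sources used here. Gene numbers were matched to symbols through RefSeq (5051 of 5059).

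Estimated counts were rounded and tested with edgeR 4.0.16 (quasi-likelihood, TMM, 2-sided, R 4.3.3) on transcripts and on gene sums, after a filter of at least 1 FPKM in at least 2 of 4 libraries. Benjamini-Hochberg adjustment covered all features tested, at 0.05. For the balance within genes, diffSplice (limma 3.58.1) was run on log2(FPKM + 0.5) values, which pools the spread over a gene's transcripts. Intervals are 95% and, like the floor of 3 counts, rest on counts without molecular identifiers. The tests were checked on simulated data, where the balance test missed many changed genes at the adjusted threshold. Alternatives were RLE factors, DESeq2 1.42.0, limma on log2(FPKM + 0.1, 0.5 or 1), 2 other filters, a replicate block and each library left out. The limma fits used a trend of variance with level, a setting picked after calls with and without it had been seen, and the fit without it was added as an alternative. The comparison of length differences and the printed windows were also chosen after seeing the data. The members, the gene lists and the rules were chosen with earlier results of these data known. The naming rule took every member transcript, the 3 smallest p of each of 4 pathway lists, and the 2 nearest patterns per gene. Some genes that this rule took are not reported here.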

Additional observations from a re-analysis of the deposited data

How the results depend on the processing

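Across 13 alternatives, 72 of 78 values of the member gene sums and 182 of 191 of the member transcripts kept their direction, and none passed the threshold. Sums that turned were Runx1 (-0.02), Gfi1 (-0.33) and Fcgr2b (0.17) without MST1-deficient replicate 2, Zeb2 (-0.56) without MST1-deficient replicate 1, and Csf3r (-0.18) without wild-type replicate 2. Zeb2 also turned with limma on log2(FPKM + 0.1), to -0.01 as sum and as transcript. Over the left-out libraries the log2 fold changes ran from -0.02 to 0.46 for the Runx1 sum, -0.33 to 1.23 for Gfi1, -0.18 to 0.80 for Csf3r, -0.56 to 0.62 for Zeb2, -0.77 to 0.17 for Fcgr2b and 0.29 to 0.69 for Lmo2. For transcripts that turned, they ran from -0.78 to 0.18 (Fcgr2b), -0.01 to 0.46 (Runx1) and -0.56 to 0.63 (Zeb2), in Csf3r from -0.75 to 0.03 (3992 bases), -0.28 to 1.48 (3903 bases) and -0.15 to 1.17 (5192 bases), and in Gfi1 from -0.09 to 1.34 (2466 bases) and -2.09 to 0.97 (2781 bases). Other Csf3r forms kept their sign, from 0.78 to 2.44 (3575 bases), 0.15 to 1.47 (3780 bases), -1.11 to -0.33 (3808 bases) and 0.07 to 0.91 (3864 bases), as did the 1755-base Lmo2 form (0.78 to 1.19). The 4078-base Csf3r form also kept its sign, from 1.19 to 9.31, the latter with a wild-type value of 0. The cause was not tested. The edgeR count of called transcripts was 0, against 100 with DESeq2, 6, 4 and 6 with limma (pseudocounts 0.5, 0.1 and 1), 5 with limma without a trend (chosen after seeing the data) and 2 among those above 0 in all 4 libraries; for gene sums it was 0, against 46, 6, 2, 7, 5 and 1. The 17 genes called for balance became 26 with a pseudocount of 0.1, 8 with no filter, 0 among transcripts above 0 in all 4 libraries, and 0 to 2 with a library left out. The replicate block gave 0 called transcripts, gene sums and genes of changed balance (lowest adjusted p 0.0613); the replicate numbers are not stated to pair the pools, and same-numbered deviations correlated at 0.126 over 4661 transcripts. The Lmo2 balance passed with a pseudocount of 0.1 (adjusted p = 0.0124) and not in the other alternatives that could test it. Low counts limit the 1594-base Lmo2 form, which could not be tested without either wild-type library or among transcripts above 0 in all 4. The 5192-base form held 16.5% of the wild-type Csf3r sum by FPKM and 21.2% by counts.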
